A study of Mus musculus with 6 samples.

Results

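The Wnt feedback genes and TCF factors are a set of 10 genes, chosen by gene symbol with no measured value in the rule. Earlier results of these data were known when they were chosen. All 10 were found among the 21877 gene symbols of the expression table. They are Axin2, Nkd1, Notum, Dkk1, Znrf3, Rnf43, Rspo3, Lgr5, Lef1 and Tcf7. Expression was measured by RNA sequencing of mouse embryos labelled embryonic day 7.5. There were 3 libraries with the Rnf111 S254D knock-in allele (KI) and 3 wild-type libraries (WT). Rnf111 (Arkadia) encodes a ubiquitin ligase that enhances Nodal signalling. The sources used here do not give zygosity, strain, sex or litter, nor how many embryos went into each library. All p-values reflect the spread between these libraries alone, and part of it may be technical.

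Canonical Wnt signalling works by stopping the breakdown of beta-catenin, which then enters the nucleus and switches on targets through TCF/LEF factors bound to DNA. In the gastrulating embryo it is known for its part in the primitive streak and in the posterior growth of the body. Many of its targets dampen it again, inside the cell, at the receptor or outside the cell, and R-spondins bound by Lgr receptors relieve the block at the receptor.

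The authors' values are RPKM, reads per kilobase of exon scaled by library depth, from libraries of about 9763041 to 13559234 reads. Libraries WT 3 and KI 2 stood apart from the other 4 over all tested genes, on principal components holding 61.5% and 25.1% of the variance. They also differed in marker genes. The summed RPKM of 7 yolk sac and visceral endoderm markers was 540, 9.19 and 649 in KI 1, 2 and 3, against 433, 437 and 1237 in WT 1, 2 and 3. The sum of 5 heart markers was 340, 103 and 413 in KI, against 412, 412 and 332 in WT. The sum of 4 Y-linked genes was 7.29, 50.9 and 0 in KI, against 41.0, 42.5 and 62.0 in WT. The streak and tail bud sum (5 genes) was 37.3, 20.6 and 34.8 in KI, against 26.9, 26.3 and 27.7 in WT. The somite sum (5 genes) was 42.6, 28.9 and 41.6 in KI, against 48.1, 49.1 and 21.2 in WT. The neural sum (5 genes) was 24.2, 33.9 and 20.2 in KI, against 15.9, 19.3 and 32.4 in WT, and 4 blood markers summed to 1724 to 1824 in KI, against 1631 to 2158 in WT. Of the 5 trophoblast markers, Tfap2c alone reached 1 RPKM. Of the 4 markers listed for maternal decidua, Gzmd and Gzme were at 0, Prl8a2 reached at most 0.32 RPKM, and Cryab was at 63.3, 21.4 and 64.6 RPKM in KI, against 61.9, 61.02 and 100.1 in WT. The part of these differences in the results below was not tested. In bulk embryo RNA, fewer cells of a type and less RNA per cell cannot be told apart.

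The promoter windows of the members, from 250 bases before to 50 bases after a start site, were searched for the core letters of the TCF/LEF site. RefSeq (GRCm38.p6) listed 11 windows for 6 members (Axin2, Dkk1, Lef1, Nkd1, Rnf43 and Tcf7). The letters searched were CTTTGA and CTTTGT on both strands, which do not overlap at the places found. Windows with either occurred for 2 of the 6 members, in 2 of the 11 windows, against 31.2% of all 32851 windows in the table (16% for CTTTGA and 18.7% for CTTTGT). Both are shown here, since Dkk1 and Lef1 had the 3 matches each that the searched windows held. The Dkk1 window is chr19:30549447-30549746 on the minus strand, and the Lef1 window is chr3:131156044-131156343 on the plus strand, the most downstream of 4 listed Lef1 starts. Capitals mark the matches, 5′ to 3′.
Dkk1: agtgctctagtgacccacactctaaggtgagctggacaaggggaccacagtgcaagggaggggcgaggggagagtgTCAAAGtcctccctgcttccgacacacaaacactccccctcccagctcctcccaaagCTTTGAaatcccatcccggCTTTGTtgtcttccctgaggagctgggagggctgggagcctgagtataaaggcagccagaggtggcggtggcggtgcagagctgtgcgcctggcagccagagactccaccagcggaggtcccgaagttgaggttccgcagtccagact
Lef1: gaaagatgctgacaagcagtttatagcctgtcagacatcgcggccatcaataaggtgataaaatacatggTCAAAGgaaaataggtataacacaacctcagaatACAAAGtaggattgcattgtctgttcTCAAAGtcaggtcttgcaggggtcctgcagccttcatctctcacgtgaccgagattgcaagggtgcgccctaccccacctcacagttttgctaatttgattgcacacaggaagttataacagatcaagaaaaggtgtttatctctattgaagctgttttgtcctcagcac
The Dkk1 matches lie at positions 77, 134 and 153 of the window, and the Lef1 matches at positions 71, 105 and 131. A match describes letters only and shows no binding. The windows of Axin2, Nkd1, Rnf43 and Tcf7 did not hold these letters.

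In the comparison of KI with WT embryos no member passed the threshold. Of the 10 members, 7 had at least 1 RPKM in at least 3 libraries and were tested. Their log2 differences on the log2(RPKM + 1) scale, where a change in a low gene looks smaller than it is, lay between -0.16 (Znrf3) and 0.26 (Lef1). Axin2, Nkd1, Dkk1, Rspo3 and Lef1 had positive differences, and Znrf3 and Tcf7 negative ones. By limma with Benjamini-Hochberg adjustment over 10104 tested genes, 0 of 7 members reached an adjusted p under 0.05, beside 0% of all tested genes (0 of 10104). The smallest adjusted p among them was 0.999. The unadjusted p was under 0.05 for 0 of 7 members, beside 1.2% of all tested genes (121). A limma-voom fit on recovered reads called 0 of the 6 members it could include and 0 of 9727 genes. The median difference of the 7 members was 0.17, against 0.05 over all tested genes, and 5 of 7 were positive, against 58.8%. Notum, Rnf43 and Lgr5 were under the expression minimum and have values and a permutation test only. With 3 libraries against 3 that exact test has 20 arrangements and cannot go below p = 0.1.

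**Figure D1:**
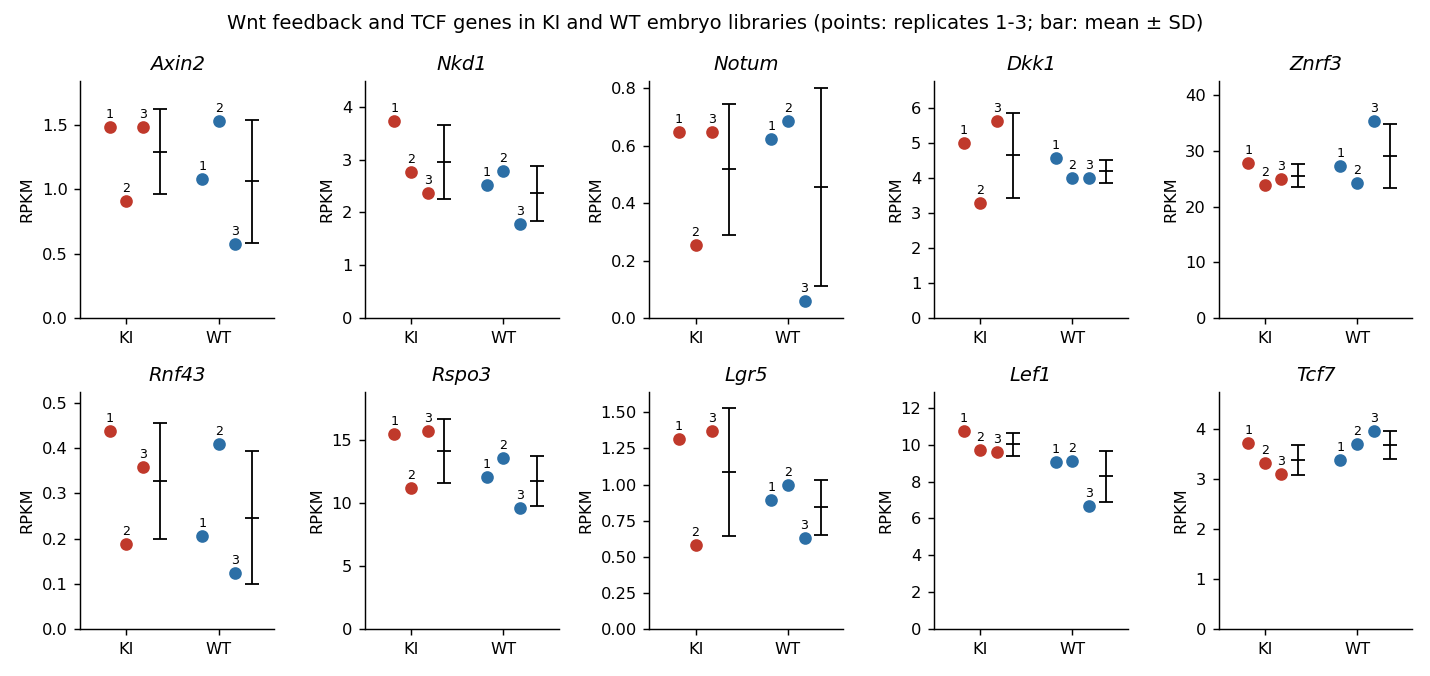
RPKM of the 10 genes in KI (red, left) and WT (blue, right) libraries, numbered by replicate, with mean ± SD beside them (n = 3 each). Only in Lef1 do all 3 KI points (9.61 to 10.7) lie above all 3 WT points (6.70 to 9.10).

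Among the inhibitors that act inside the cell, Axin2 was low and variable. Axin2 encodes a scaffold of the complex that marks beta-catenin for breakdown, and it is a widely used readout of the pathway. It was at 1.48, 0.912 and 1.48 RPKM in KI 1, 2 and 3, against 1.08, 1.53 and 0.576 in WT 1, 2 and 3, from 43 to 107 reads per library. The lowest library was WT 3 and the next lowest KI 2, and the groups overlapped. The means were 1.29 ± 0.33 RPKM in KI against 1.06 ± 0.48 RPKM in WT (SD, 3 libraries each), and the log2 difference was 0.17 (SE 0.22, 95% interval -0.36 to 0.70). With a pseudocount of 0.1, which compresses low genes less, the difference of Axin2 was 0.32 and its interval -0.66 to 1.30. Without WT 3 the sign of Axin2 turned (-0.012).

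Nkd1 encodes a protein that binds Dishevelled and damps the signal below the receptor. Its level was 3.74, 2.76 and 2.36 RPKM in KI 1, 2 and 3, against 2.52, 2.79 and 1.78 in WT 1, 2 and 3. KI 1 was the highest and WT 3 the lowest library, and the other 4 lay between 2.36 and 2.79 with no order by genotype. The log2 difference of 0.23 (SE 0.21, 95% interval -0.26 to 0.73) had an interval that includes 0 (limma, unadjusted p = 0.309). It was 0.10 without WT 3 and 0.09 without KI 1.

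Of the secreted inhibitors, Dkk1 binds the co-receptors Lrp5 and Lrp6 and Notum removes the lipid that Wnt ligands need. Dkk1 was at 5.01, 3.29 and 5.65 RPKM in KI 1, 2 and 3, against 4.58, 3.998 and 4.01 in WT 1, 2 and 3. The WT values were close together, while KI held both the highest library (KI 3) and the lowest (KI 2). Its log2 difference was 0.10 (SE 0.22, 95% interval -0.41 to 0.60). It was 0.29 without KI 2 and -0.031 without KI 3, so single KI libraries set its size and its sign.

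Notum was near the limit of detection. It was at 0.650, 0.255 and 0.648 RPKM in KI 1, 2 and 3, against 0.623, 0.688 and 0.0613 in WT 1, 2 and 3. These values rest on 18, 6 and 18 reads in KI and 20, 21 and 2 reads in WT. KI 1, KI 3, WT 1 and WT 2 were almost level, and KI 2 and WT 3 were low. The 2 reads of WT 3 allow 0.0074 to 0.221 RPKM (95% exact Poisson interval, counting error only), below the interval of WT 1 (0.381 to 0.963). The 6 reads of KI 2 allow 0.094 to 0.56 RPKM, which overlaps the interval of WT 1. Between the genotypes the exact two-sided permutation p was 0.8.

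Znrf3 and Rnf43 are a pair of membrane ubiquitin ligases that remove Frizzled receptors from the cell surface. Their levels lay far apart. Znrf3 was the highest of the 10 members, at 27.8, 23.9 and 25.004 RPKM in KI 1, 2 and 3, against 27.4, 24.3 and 35.5 in WT 1, 2 and 3. WT 3 was the highest library and the other 5 lay between 23.9 and 27.8 with the genotypes mixed. The log2 difference of -0.16 (SE 0.18, 95% interval -0.59 to 0.27) was -0.014 without WT 3. Rnf43 was the lowest member, at 0.437, 0.187 and 0.357 RPKM in KI 1, 2 and 3, against 0.206, 0.409 and 0.124 in WT 1, 2 and 3, from 11 to 34 reads. WT 3, the highest library for Znrf3, was the lowest for Rnf43 (exact two-sided permutation p between genotypes 0.5). Rnf43 made up 1.24% ± 0.41 of the summed RPKM of the pair in KI and 0.92% ± 0.67 in WT (SD, 3 libraries each).

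At the receptor the positive side is carried by R-spondins, which draw the Znrf3 and Rnf43 ligases away from Frizzled, and by the Lgr proteins that bind them. Rspo3 was at 15.4, 11.2 and 15.7 RPKM in KI 1, 2 and 3, against 12.0, 13.6 and 9.59 in WT 1, 2 and 3. KI 1 and KI 3 were the highest libraries, but KI 2 lay below WT 1 and WT 2, so the groups overlapped. The log2 difference was 0.24 (SE 0.21, 95% interval -0.25 to 0.73). Rspo3 supplied 90.6% ± 4.7 of the summed R-spondin RPKM in KI and 90.5% ± 5.0 in WT (SD, 3 libraries each), with Rspo1, Rspo2 and Rspo4 making up the rest.

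Lgr5, an R-spondin receptor and a Wnt target, was at 1.31, 0.579 and 1.37 RPKM in KI 1, 2 and 3, against 0.892, 0.999 and 0.632 in WT 1, 2 and 3. KI 1 and KI 3 were the highest libraries and KI 2 the lowest (exact two-sided permutation p = 0.6). Its relative Lgr4, which is no member, was much higher, at 28.5, 34.9 and 28.2 RPKM in KI against 26.3, 26.0 and 66.9 in WT. Lgr5 was 3.55% ± 1.66 of the summed Lgr RPKM in KI and 2.64% ± 1.49 in WT (SD, 3 libraries each). WT 3 held the highest Lgr4 and Znrf3 levels together with low Lgr5 and Rnf43 levels.

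Lef1 and Tcf7 are the TCF/LEF factors that mostly act as activators when beta-catenin is bound. Lef1 was at 10.7, 9.70 and 9.61 RPKM in KI 1, 2 and 3, against 9.07, 9.10 and 6.70 in WT 1, 2 and 3, from 798 to 1085 reads. All 3 KI values lay above all 3 WT values, the only member of the 7 tested with separated groups, beside 3.8% of all tested genes separated in this direction and 6.54% in either. The gap was narrow, 9.61 in KI 3 against 9.10 in WT 2. The means were 10.01 ± 0.62 RPKM in KI against 8.29 ± 1.38 RPKM in WT (SD, 3 libraries each). The log2 difference of Lef1 was 0.26 (SE 0.19, 95% interval -0.18 to 0.69; limma adjusted p = 0.999), and the exact two-sided permutation p was 0.1, the smallest possible. Without WT 3, the lowest library, it was 0.13.

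Tcf7 went the other way in sign. It was at 3.71, 3.32 and 3.10 RPKM in KI 1, 2 and 3, against 3.38, 3.71 and 3.96 in WT 1, 2 and 3, and the groups overlapped. The log2 difference of -0.10 (SE 0.17, 95% interval -0.49 to 0.30) was smaller than the spread. Tcf7 made up 7.88%, 6.38% and 7.74% of the summed RPKM of Lef1, Tcf7, Tcf7l1 and Tcf7l2 in KI 1, 2 and 3, against 8.24%, 9.24% and 9.73% in WT 1, 2 and 3. These shares did not overlap between the genotypes (exact two-sided permutation p = 0.1, the smallest possible; Benjamini-Hochberg adjusted p = 0.867 over 13 shares compared), and this was the one share of the 13 without overlap. Tcf7l2, which is no member, had the largest share, 47.3% ± 3.0 in KI against 51.0% ± 13.3 in WT. In WT 3 it was 66.4%, and the repressive Tcf7l1 was 7.40% there against 21.8% to 25.6% in the other 5 libraries.

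**Figure D2:**
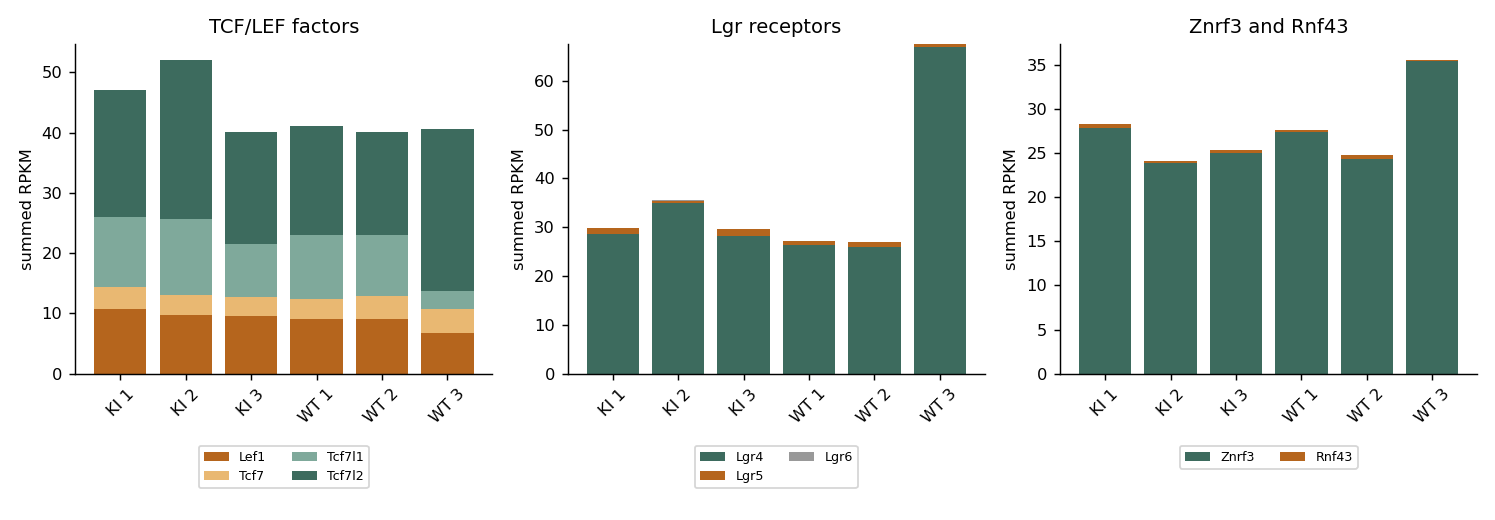
Summed RPKM of the TCF/LEF factors, the Lgr receptors and the Znrf3 and Rnf43 pair in each library, KI left of WT, stacked by gene. Tcf7l2, Lgr4 and Znrf3 make up the largest block of their panels, and WT 3 has the tallest Lgr4 and Znrf3 blocks (66.9 and 35.5 RPKM).

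**Figure D3:**
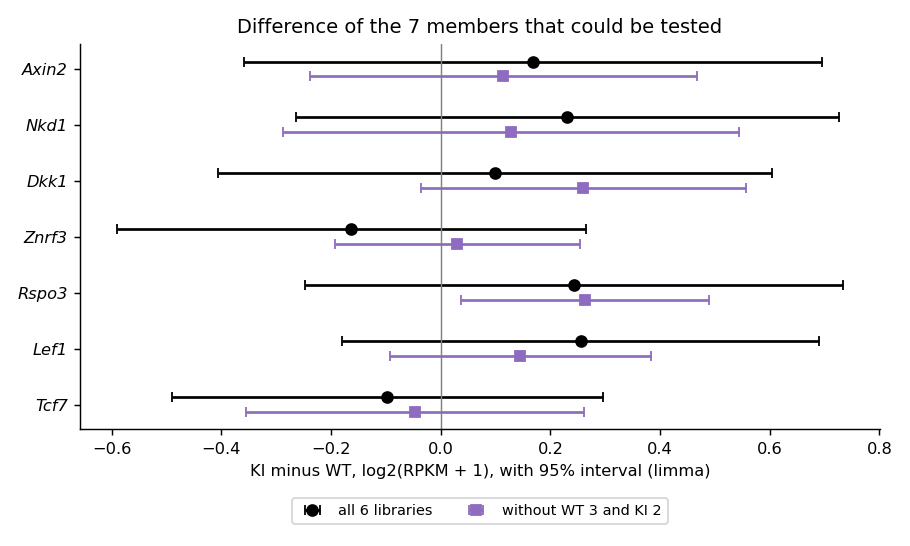
KI minus WT difference of the 7 tested genes on the log2(RPKM + 1) scale with 95% intervals from limma, for all 6 libraries and without WT 3 and KI 2. With all 6 libraries every interval includes 0, and without both libraries that of Rspo3 (0.04 to 0.49) does not, 1 of 7, beside 11.6% of all tested genes with an unadjusted p under 0.05.

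Because RPKM is scaled by exon length, levels were ordered between genes, as a description only. The order depends on the exon lengths behind the values, and that of Tcf7 could not be reproduced here. Over the 6 libraries the mean level was 27.3 ± 4.3 RPKM for Znrf3, 12.9 ± 2.4 for Rspo3, 9.15 ± 1.34 for Lef1, 4.42 ± 0.84 for Dkk1 and 3.53 ± 0.31 for Tcf7 (SD over both genotypes). It was 2.66 ± 0.64 RPKM for Nkd1, 1.18 ± 0.39 for Axin2, 0.964 ± 0.332 for Lgr5, 0.488 ± 0.263 for Notum and 0.287 ± 0.131 for Rnf43. The ranges of neighbours in this order were apart between Znrf3 and Rspo3, between Lef1 and Dkk1, and between Nkd1 and Axin2. All other neighbours overlapped in range, although Rspo3 was above Lef1 and Lgr5 above Notum in 6 of 6 libraries.

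WT 3 and KI 2 set the extremes of most members. WT 3 was the lowest of the 6 libraries in Axin2, Lef1, Nkd1 and Rspo3, 4 of the 7 tested members, beside 51.8% of all tested genes. It was the highest in Tcf7 and Znrf3, 2 of 7, beside 19.4%. KI 2 was the lowest in Znrf3 and Dkk1, 2 of 7, beside 20.6%, and the highest in 0 of 7, beside 17.5%. One or the other was the lowest in 6 of 7, beside 72.4%. Set against KI 1, KI 3, WT 1 and WT 2 alone, WT 3 lay below all 4 in 4 of 7 (59.7% of all tested genes) and above in 2 of 7 (22.5%). KI 2 lay below all 4 in Axin2, Znrf3, Dkk1 and Rspo3, 4 of 7 (44.8%). The shares of members were near those of all genes. Relative to the mean of the other 4 libraries, WT 3 had 0.413 times the Axin2 level, 0.695 times that of Lef1 and 1.36 times that of Znrf3, and KI 2 had 0.506 times the Lgr5 level. These ratios were not corrected for shifts of a whole library. The median tested gene of WT 3 was at 2.49 on the log2(RPKM + 1) scale, against 2.79 to 2.97 in the other libraries. In WT 3, 8912 genes reached 1 RPKM, against 9738 to 10148 in the others.

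**Figure D4:**
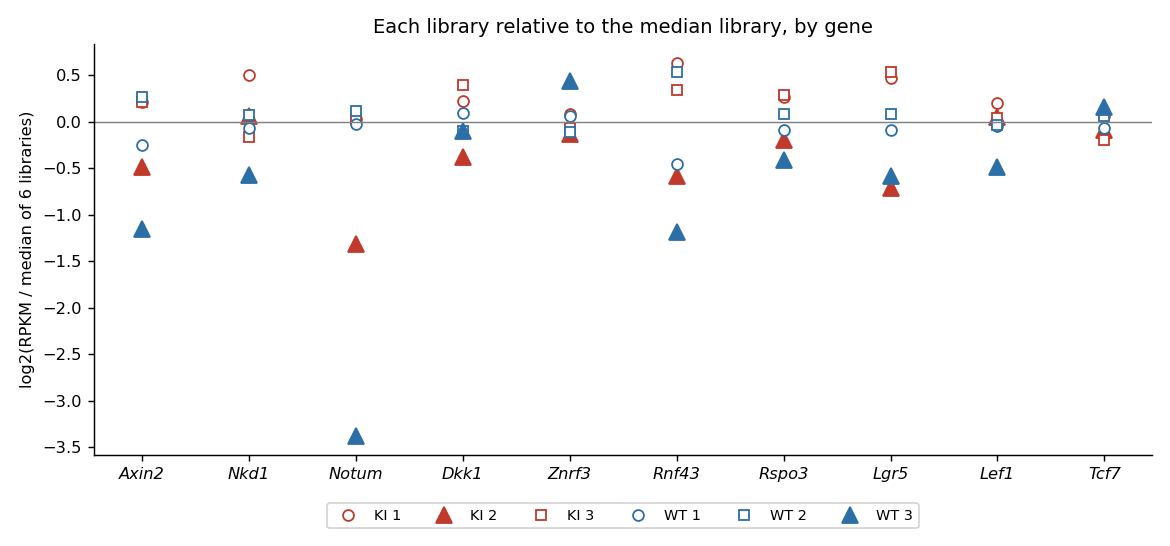
Level of each gene in each library as log2 of its RPKM over the median of the 6 libraries (KI red, WT blue; KI 2 and WT 3 as filled triangles). WT 3 is lowest in Axin2, Nkd1, Notum, Rnf43, Rspo3 and Lef1 and highest in Znrf3 and Tcf7, and KI 2 is lowest in Dkk1, Znrf3 and Lgr5.

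Without WT 3 and KI 2, 0 of 7 members passed the threshold, beside 0.406% of all tested genes. Both libraries stood apart in these same values, so leaving them out narrows the spread, and p-values in this setting can be too small. Rspo3 had the smallest p, with a log2 difference of 0.26 (SE 0.10) and a limma adjusted p of 0.353 (unadjusted 0.028). It was the 1 of 7 members with an unadjusted p under 0.05, beside 11.6% of all tested genes (1177) in these 4 libraries, so the share of members was near the background. KI 1 and KI 3 lay above both WT 1 and WT 2 in Lef1, Dkk1 and Rspo3, 3 of the 7 tested members, beside 18.6% of all tested genes in this direction. None of the 7 lay below in the same way, beside 24.3% of all tested genes. In these 4 libraries the Y-linked sum was 7.29 and 0 in KI, against 41.0 and 42.5 in WT, so genotype and Y-linked expression cannot be told apart there. Most other marker sums also split. Streak and tail bud sums were higher in KI (37.3 and 34.8 against 26.9 and 26.3 in WT). So were yolk sac (540 and 649 against 433 and 437), neural (24.2 and 20.2 against 15.9 and 19.3), trophoblast and decidua sums. Somite sums (42.6 and 41.6 against 48.1 and 49.1) and blood sums (1724 and 1747 against 2158 and 2103) were lower in KI. Heart sums overlapped (340 and 413 against 412 and 412). The part of these markers in these values was not tested.

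The genes whose pattern over the 6 libraries was most like that of Axin2, out of 9638 tested protein-coding genes with a regular symbol, were Anks3, Med26, Tmem170b, Cep72 and Pex11a. Their Pearson r with Axin2 on the log2(RPKM + 1) scale was 0.994, 0.994, 0.990, 0.988 and 0.988, in that order, with Spearman rho between 0.829 and 1. Without WT 3 and KI 2, the libraries farthest from the Axin2 median, r lay between 0.928 and 0.970. Over all 6 libraries, r with Axin2 among the other tested members was 0.95 for Rspo3, 0.79 for Lef1 and 0.69 for Nkd1. It was 0.56 for Dkk1, -0.36 for Tcf7 and -0.68 for Znrf3. These are descriptions over 6 libraries that share WT 3 as an extreme, and the first 5 genes were picked as the highest.

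The rest of the Wnt pathway was read from 7 lists with 106 genes in the table, of which 74 were tested. By limma 0 of 74 passed the threshold (0 of 10104 over all genes), 44 differences were positive and 30 negative, and the median was 0.09. In 9 of the 74 all KI values lay above all WT values, beside 3.8% of all tested genes, and in 0 below, beside 2.74%. The lists were chosen with earlier results of these data known, so these shares are a description only. The unadjusted p was under 0.05 for 2 of the 74, Wnt2b and Sfrp1, beside 1.2% of all tested genes.

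Of 11 tested genes for Wnt ligands and their export, 5 differences were positive and 6 negative. Wls, which carries Wnt proteins to the cell surface, was at 26.2 ± 2.1 RPKM in KI against 21.04 ± 1.91 RPKM in WT, with a log2 difference of 0.30. Wnt2 was at 9.89 ± 5.53 and Wnt5b at 7.34 ± 3.72 RPKM in KI, against 13.2 ± 5.5 and 6.02 ± 2.16 in WT. Wnt5a, a ligand of mostly beta-catenin-independent signalling, was at 4.96 ± 0.84 RPKM in KI against 5.09 ± 1.58 in WT. Wnt2b, chosen after its values were seen, was at 1.97 ± 0.26 RPKM in KI against 1.05 ± 0.10 in WT (log2 difference 0.53, limma unadjusted p = 0.0112, adjusted p = 0.999).

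Among 12 tested receptor genes 5 differences were positive and 7 negative, between -0.28 and 0.34. Fzd3 was the highest, at 24.95 ± 6.49 RPKM in KI against 22.1 ± 1.8 in WT, and Ryk stood at 6.43 ± 0.86 in KI against 7.05 ± 0.79 in WT. Fzd2 was at 4.65 ± 0.17 RPKM in KI against 4.53 ± 2.01 in WT, and Fzd7 at 4.23 ± 0.50 in KI against 4.82 ± 0.75 in WT (SD, 3 libraries each, as for all means here).

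Of 10 tested further inhibitors 7 differences were positive and 3 negative. Sfrp1, a secreted Frizzled-related protein that binds Wnt ligands, was at 28.3, 43.2 and 25.4 RPKM in KI 1, 2 and 3, against 20.9, 22.7 and 8.70 in WT 1, 2 and 3. The KI values all lay above the WT values, with KI 2 the highest and WT 3 the lowest library (log2 difference 0.92, SE 0.37; limma unadjusted p = 0.0421, adjusted p = 0.999). Sfrp2 was at 20.7 ± 6.1 RPKM in KI against 17.0 ± 10.1 in WT, Frzb at 10.3 ± 2.3 in KI against 7.95 ± 2.30 in WT, and Sostdc1 at 4.602 ± 0.949 in KI against 5.47 ± 0.92 in WT.

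The destruction complex list had 13 tested genes, 6 positive and 7 negative. Gsk3b, the kinase that marks beta-catenin, was at 93.4 ± 18.4 RPKM in KI against 91.5 ± 39.2 in WT, and the priming kinase gene Csnk1a1 at 51.1 ± 1.4 in KI against 49.7 ± 7.2 in WT. Ctnnb1, which encodes beta-catenin, was at 22.0 ± 3.0 RPKM in KI against 23.6 ± 0.47 in WT (log2 difference -0.10). Amer1, which binds Apc, was at 14.2 ± 2.1 RPKM in KI against 14.8 ± 0.41 in WT.

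Among 13 tested TCF, Tle and cofactor genes 11 differences were positive and 2 negative, with a median of 0.27. Tcf7l2 was at 22.0 ± 4.0 RPKM in KI against 20.7 ± 5.4 in WT, and Tcf7l1 at 10.99 ± 2.03 in KI against 7.92 ± 4.26 in WT. The corepressor genes Ctbp2 and Ctbp1 stood at 11.2 ± 0.5 and 11.1 ± 3.0 RPKM in KI, against 9.17 ± 0.29 and 7.79 ± 2.54 in WT. Tcf7l1 and Ctbp1 were lowest in WT 3, at 3.01 and 4.89 RPKM. Of the other R-spondin and Lgr genes Lgr4 alone was tested.

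Of 14 tested Wnt targets of the streak and tail bud 10 differences were positive and 4 negative, with a median of 0.09. Myc was at 74.2 ± 7.3 RPKM in KI against 64.7 ± 9.6 in WT, and the cyclin gene Ccnd2 at 67.1 ± 4.0 in KI against 56.1 ± 22.4 in WT. Cdx4, a caudal-type factor of the posterior body, was at 78.9, 35.6 and 76.7 RPKM in KI 1, 2 and 3, against 41.2, 40.1 and 56.8 in WT 1, 2 and 3. The zinc-finger factor Sp8 was at 40.3, 34.5 and 43.2 RPKM in KI against 26.9, 25.5 and 84.3 in WT. Both overlapped between genotypes. Without WT 3 and KI 2 the limma adjusted p was 0.0077 for Cdx4 and 0.029 for Sp8, both higher in KI 1 and KI 3. It was 0.047 for the cyclin gene Ccnd1, lower in KI 1 and KI 3, and these 3 of the 74 were among 41 genes called there (0.406% of all tested genes). Ccnd1 is named for that result, after its values were seen. WT 3 and KI 2 stood apart in these same values, so leaving both out narrows the spread. The p-values of this setting can therefore be too small, and leaving out any single library gave 0 calls. The Y-linked sum was 7.29 and 0 in KI 1 and KI 3, against 41.0 and 42.5 in WT 1 and WT 2. Genotype and Y-linked expression therefore cannot be told apart in these calls.

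**Figure D5:**
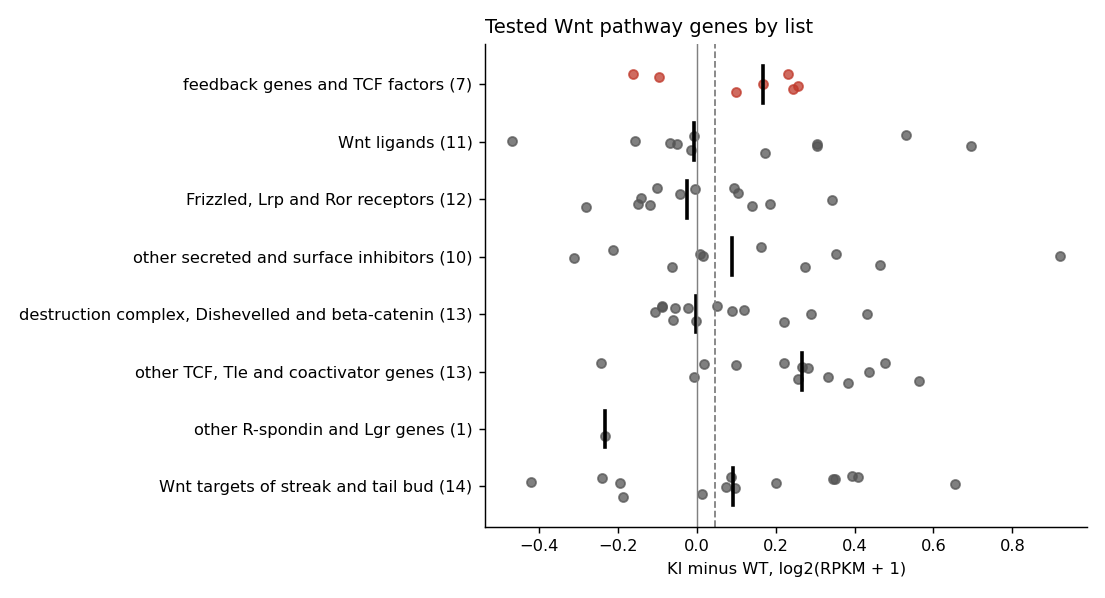
KI minus WT difference on the log2(RPKM + 1) scale for each tested gene, by list, with the number tested in brackets. Black bars are list medians (0.17 for the feedback genes and TCF factors) and the dashed line is the median of all tested genes (0.05).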

How the data were processed

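Mouse embryos were profiled in 3 KI and 3 WT libraries, grouped by the labels. The labels' protocols name oligo(dT) beads and a SMARTER mRNA-seq kit. The submitters' processing notes name the build GRCm39. The sources used here do not give the aligner, counting tool, annotation or strand use. In the table, the authors deposited RPKM, a unit inferred from the numbers themselves; the labels call the table raw counts, but the values are not whole. Times the merged exon length of GENCODE M21 (GRCm38), 97.9% to 98.0% of the nonzero values under 2000 reads in each library were whole multiples of a single step within 0.05, which gave the depths and reads. Tcf7 did not become whole and has no read count here. For 20 repeated symbols only the row of highest mean entered.

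The deposited RPKM were put on the log2 scale with a pseudocount of 1. The 10104 genes reaching 1 RPKM in 3 or more libraries entered limma (3.58.1; R 4.3.3) with a trend, a robust prior and no covariate. The threshold was a Benjamini-Hochberg adjusted p under 0.05. Single members and shares had exact two-sided permutation tests. Intervals on reads cover counting error only. Alternatives changed the pseudocount, filter, scaling, model and libraries. The members and lists were chosen with earlier results of these data known. Named genes were the members, up to 4 tested genes per list by mean RPKM, the 5 genes most like Axin2, and, chosen after their values were seen, Wnt2b and Ccnd1. RefSeq promoter windows (GRCm38.p6) were matched by symbol.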

Additional observations from a re-analysis of the deposited data

How the results depend on the processing

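Across 15 alternative settings 0 members passed the threshold, and of 104 recomputed member differences 101 kept their sign. The exceptions were Axin2 without WT 3 (-0.012), Dkk1 without KI 3 (-0.031) and Znrf3 without WT 3 and KI 2 (0.031). Settings that changed only the expression filter, the prior or the replicate block gave the main differences again. Signs could not turn in those settings. Leaving out single libraries gave 0 calls among members, pathway genes and all genes. The differences then ran between -0.012 and 0.33 for Axin2, -0.031 and 0.29 for Dkk1, 0.13 and 0.32 for Lef1, 0.093 and 0.34 for Nkd1, 0.12 and 0.39 for Rspo3, -0.15 and -0.051 for Tcf7, and -0.28 and -0.014 for Znrf3. Without WT 3 and KI 2 there were 41 calls over all genes and 3 among pathway genes. By limma, Cdx4 (log2 difference 0.92) and Sp8 (0.65) were higher and Ccnd1 (-0.65) lower in KI. The libraries left out stood apart in these same values, so p-values without them can be too small. In the libraries left, genotype and Y-linked expression cannot be told apart, and the cause was not tested. With the replicate block there were 0 calls. The deviations of libraries with the same number correlated at 0.12, -0.051 and 0.0054 for numbers 1, 2 and 3, so the numbers were not taken as pairs. With TMM scaling, here without weights, and quantile normalization the signs of the 7 members held, but the sizes moved. In that order, the positive differences became smaller, as in Lef1 (0.19 and 0.18) and Dkk1 (0.037 and 0.028). Tcf7 became more negative (-0.16 and -0.17), and Znrf3 was at -0.23 and -0.14. The median over all tested genes was -0.011 and -0.0016, against 0.047 in the main setting. A planned quasi-likelihood count test on the recovered reads was not run; limma-voom was run on them in its place. Depth limits Notum and Rnf43, with 2 to 34 reads per library.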
